A study of Mus musculus with 8 samples.

Results

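The 9 genes described here encode transcription factors of skeletal muscle, namely the myogenic basic helix-loop-helix (bHLH) factors Myod1, Myog, Myf5 and Myf6, the MEF2 factors Mef2a, Mef2c and Mef2d, the paired-box factor Pax7 and the homeobox factor Six4. They were taken by symbol from a count table of 25655 genes, and all 9 had a row. RNA came from the gastrocnemius, a calf muscle rich in fast fibres, of male wild-type mice at day 4. The control group held 5 libraries from mice given 10% glycerol, and the sepsis group held 3 libraries from mice given cecal slurry, which is suspended gut content and causes infection with many microbes. The sources used here give no strain or age, and the labels do not say whether each library came from a separate mouse, so the p-values here speak of the spread between these libraries, which may be technical. The libraries were made with QuantSeq, a kit that sequences polyadenylated transcripts from their 3′ ends. Levels are given as CPM, the count relative to the library total after edgeR's TMM scaling. They were not divided by transcript length, since in such libraries a captured transcript gives about 1 read whatever its length.

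The myogenic bHLH factors bind E-boxes in muscle promoters as dimers with E proteins. Myf5 and MyoD commit cells to the muscle lineage, myogenin drives their differentiation, and Myf6, also called MRF4, is the main bHLH factor of mature fibres. MEF2 proteins have little myogenic activity alone and act together with the bHLH factors on contractile and metabolic genes, while class II histone deacetylases hold them inactive. Pax7 marks satellite cells, the stem cells that lie along the fibres, and Six4 with EYA coactivators acts upstream of the bHLH genes.

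The upstream sequence of Myog holds motifs of several of these factors side by side, and is printed for that reason with those of 2 other members that held a match to a MEF2 motif or to MEF3, which Six4 binds. Sequences are from the RefSeq promoter table of build GRCm38.p6, in which 7 of the 9 members were matched and Myod1 and Myf6 were not; the counts were made on GRCm39, and no coordinate of that build is used. Each runs 5′ to 3′ on the gene's strand, capitals mark the motif matches, and positions count from the annotated start. For Myog and Six4 the 250 bases before the start are shown, and for Mef2a the 30 bases around its match.
Myog, chr1:134289754-134290003, plus strand: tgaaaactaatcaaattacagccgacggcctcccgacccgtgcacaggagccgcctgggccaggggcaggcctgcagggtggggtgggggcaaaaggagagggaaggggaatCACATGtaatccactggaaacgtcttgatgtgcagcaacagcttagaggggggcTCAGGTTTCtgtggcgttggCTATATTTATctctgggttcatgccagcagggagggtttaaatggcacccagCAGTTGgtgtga
Six4, chr12:73113246-73113495, minus strand: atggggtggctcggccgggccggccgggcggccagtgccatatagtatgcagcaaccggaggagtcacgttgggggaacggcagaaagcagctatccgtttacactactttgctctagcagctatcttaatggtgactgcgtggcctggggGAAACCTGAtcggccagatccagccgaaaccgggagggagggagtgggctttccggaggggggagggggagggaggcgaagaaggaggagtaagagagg
Mef2a, chr7:67372841-67372870, minus strand: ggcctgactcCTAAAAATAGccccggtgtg
In Myog the capitals are the E-boxes (CANNTG) beginning at -138 and -12, the MEF3 motif TCAGGTTTC at -84 and the A/T-rich run CTATATTTAT at -64. That run is not a match to the MEF2 consensus as searched here, and its letters were added to the search after the sequence had been seen. The capitals in Six4 are the MEF3 motif on the opposite strand at -99, and those in Mef2a are a full match to the MEF2 consensus at -2. Six4 has 2 start sites in the table, and the window of the one not shown held no motif match. Both strands were searched in 300-base windows. Of 32851 such promoters in the table, 72.3% held an E-box, 0.429% held TCAGGTTTC, 0.557% held the MEF2 consensus and 0.0731% held CTATATTTAT. Among the 10 member promoters, 3 held an E-box, which were that of Myog and 2 of the 3 start sites of Mef2c. A match describes the letters only and does not show that a factor binds there.

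Total counts ran from 3086277 to 4016329 per library, at which 1 read was worth 0.210 to 0.362 CPM. Septic libraries spread more than controls, with a median SD of log2 CPM over 9810 genes of 0.31 against 0.23. By edgeR's quasi-likelihood F test, with p-values adjusted by Benjamini and Hochberg's method, 50.4% of the 9810 genes changed, 25.2% higher and 25.2% lower, and the groups did not overlap in 47.5%. Scaling by library totals alone in place of TMM moved the log2 fold change of the median gene from 0.01 to 0.43, so each value below shifts upward by about that amount under that scaling. The control 1 library stood apart in the embryonic myosin Myh3, with 114 reads against 0 to 11 in the other controls. In the same library perinatal myosin (Myh8) had 141 reads against 10 to 15. Among markers of other cells, 10 of 11 fibro-adipogenic genes fell, and 4 of 11 neutrophil genes could be tested. Those 4 had 0 to 3 reads summed over the controls, so they passed the low-count filter only through the septic libraries. That they all rose was thereby fixed in advance and is no result about the list.

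The filter on low counts kept 7 members, of which 5 changed past an adjusted p of 0.05, with Myf6 higher and Myod1, Myog, Mef2c and Six4 lower in sepsis. This is 71.4% of the members tested, beside 50.4% of all genes. The groups did not overlap for 4 of the 7, beside 47.5% of all genes. Mef2a and Mef2d did not pass, and Myf5 and Pax7 had too few reads. The median log2 fold change of the 7 was -0.56, beside 0.01 for all genes tested. With library totals alone Myf6, Mef2a and Mef2d were higher, beside 43.4% of all genes, and Myod1 and Mef2c lower, beside 14.1%.

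**Figure D1:**
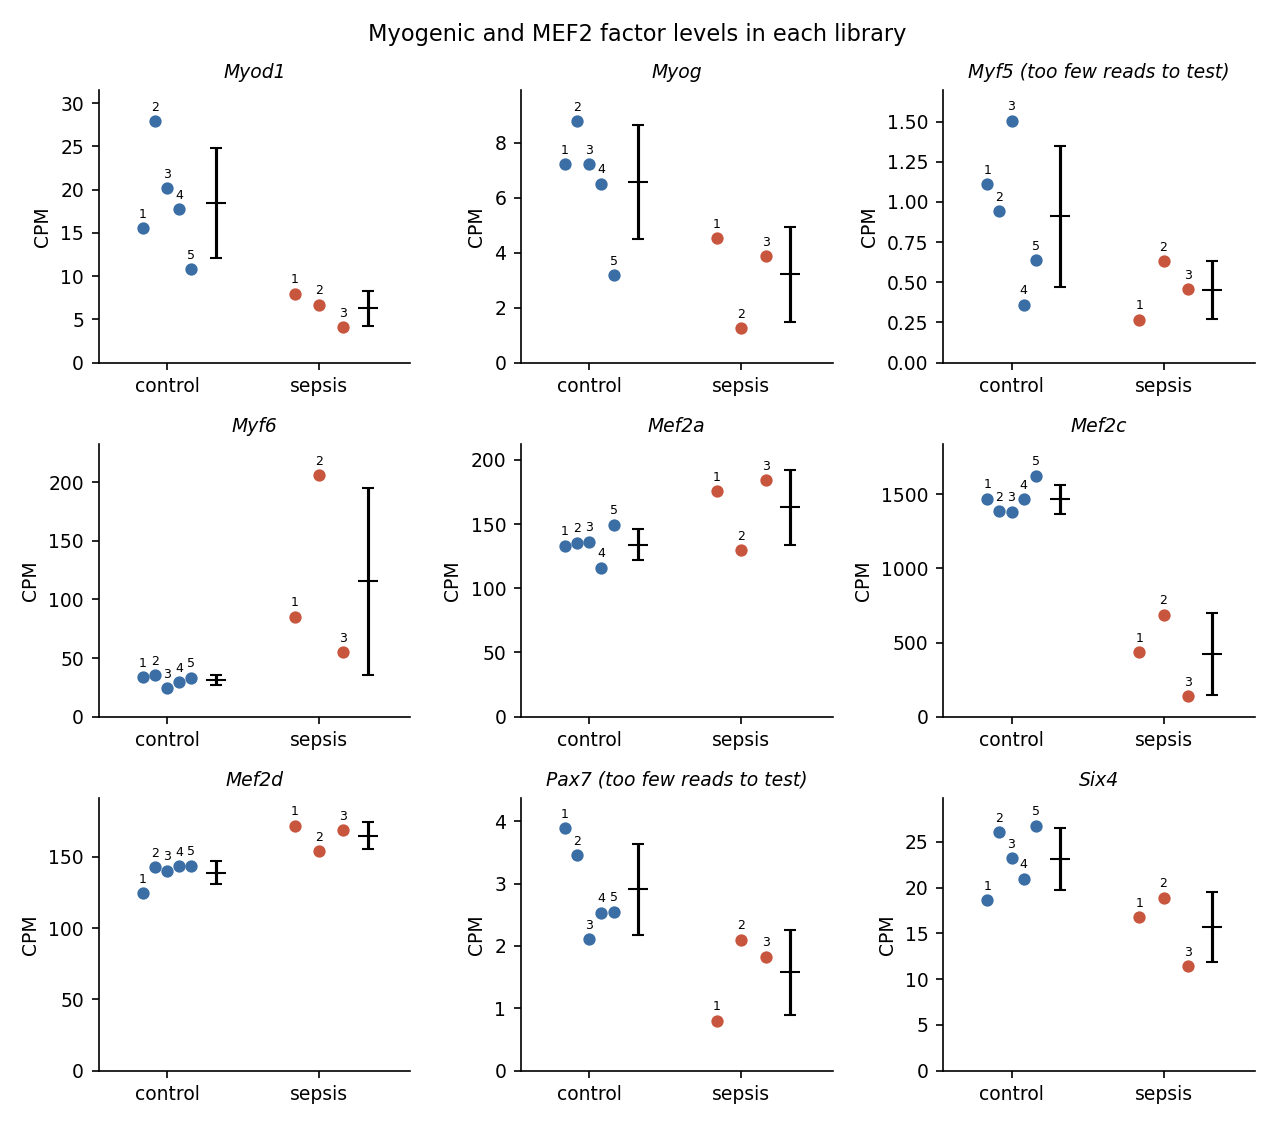
Level of each factor in CPM (TMM-scaled, linear axis from 0) in the 5 control and 3 septic libraries; each point is a library with its replicate number, and the bar at its right is the mean ± SD. The groups were separate for Myod1, Myf6, Mef2c and Mef2d among the genes tested, and sepsis 2 was the highest septic library for both Myf6 and Mef2c.

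Among the bHLH factors, transcripts of Myf6 rose while those of Myod1 and Myog fell. Myf6 (ENSMUSG00000035923) stood at 33.9, 35.5, 24.1, 29.3 and 33.1 CPM in controls 1 to 5 and at 85.4, 206 and 55.0 CPM in sepsis 1 to 3. All 3 septic libraries were above all 5 controls, and sepsis 2 was far above the other two. The rise was 3.71-fold, from 31.2 ± 4.56 to 115 ± 79.8 CPM (mean ± SD, n = 5 and 3), a log2 fold change of 1.89 (SE 0.38) with an edgeR adjusted p of 0.00359. It passed in all 18 alternative analyses, and without sepsis 2 the log2 fold change was 1.17 at an adjusted p of 0.000195 (1.12e-07 to 0.0213 over the alternatives). Among 3073 genes with a mean log2 CPM of at least 5, only 2.54% varied more than Myf6 across the septic libraries, where its SD of log2 CPM was 0.96.

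Myod1 (ENSMUSG00000009471), the gene of MyoD, was at 15.5, 27.9, 20.2, 17.7 and 10.8 CPM in controls 1 to 5. In sepsis 1 to 3 it was at 7.98, 6.72 and 4.11 CPM, below every control. It fell 2.95-fold, or -1.56 (SE 0.31) on the log2 scale, at an edgeR adjusted p of 0.00104, and passed in all 18 alternatives. These levels rest on 34 to 89 reads per control and 18 to 32 per septic library.

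Myog (ENSMUSG00000026459), the gene of myogenin, is a weaker case. Its controls held 7.22, 8.79, 7.23, 6.51 and 3.19 CPM, and the septic libraries held 4.52, 1.26 and 3.88 CPM, from 6 to 28 reads each. The groups overlapped, because control 5 was below sepsis 1 and sepsis 3. The log2 fold change was -1.06 (SE 0.40) at an edgeR adjusted p of 0.0419. The call was lost in 8 of 18 alternatives, namely without control 1, 2, 3 or 4 or sepsis 2, with library totals alone, with DESeq2 and with limma-voom. Without sepsis 2 the log2 fold change was -0.65 at an adjusted p of 0.155 (0.0175 to 0.171 over the alternatives).

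Myf5 (ENSMUSG00000000435) was near the detection floor, with 15 reads summed over the controls, 6 summed over sepsis and no library above 5. Its mean level was 0.911 ± 0.439 CPM in controls and 0.451 ± 0.182 CPM in sepsis. Without the low-count filter edgeR gave a log2 fold change of -0.93 (SE 0.79) and an adjusted p of 0.415, so no difference was detectable at this depth.

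The make-up of the bHLH family's reads, a ratio within each library that needs no scaling factor, moved toward Myf6. Myf6 made up 58.7%, 48.5%, 45.5%, 54.4% and 69.3% of the family's reads in controls 1 to 5, and 87.0%, 96.0% and 86.7% in sepsis 1 to 3. The groups did not overlap. Myod1 made up 22.7% to 38.2% in controls and 3.13% to 8.13% in sepsis, again without overlap. Myog made up 6.67% to 13.6% in controls and 0.588% to 6.12% in sepsis, where control 5 and sepsis 3 lay close together. The family as a whole went from 57.1 ± 9.63 to 125 ± 79.1 CPM, with septic libraries between 63.5 and 214 CPM and controls between 47.8 and 73.1 CPM. These summed levels overlapped, and their spread in sepsis is that of Myf6. The shares are parts of a whole, so a rise of Myf6 alone lowers the others. They describe reads at transcript 3′ ends and were not tested.

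**Figure D2:**
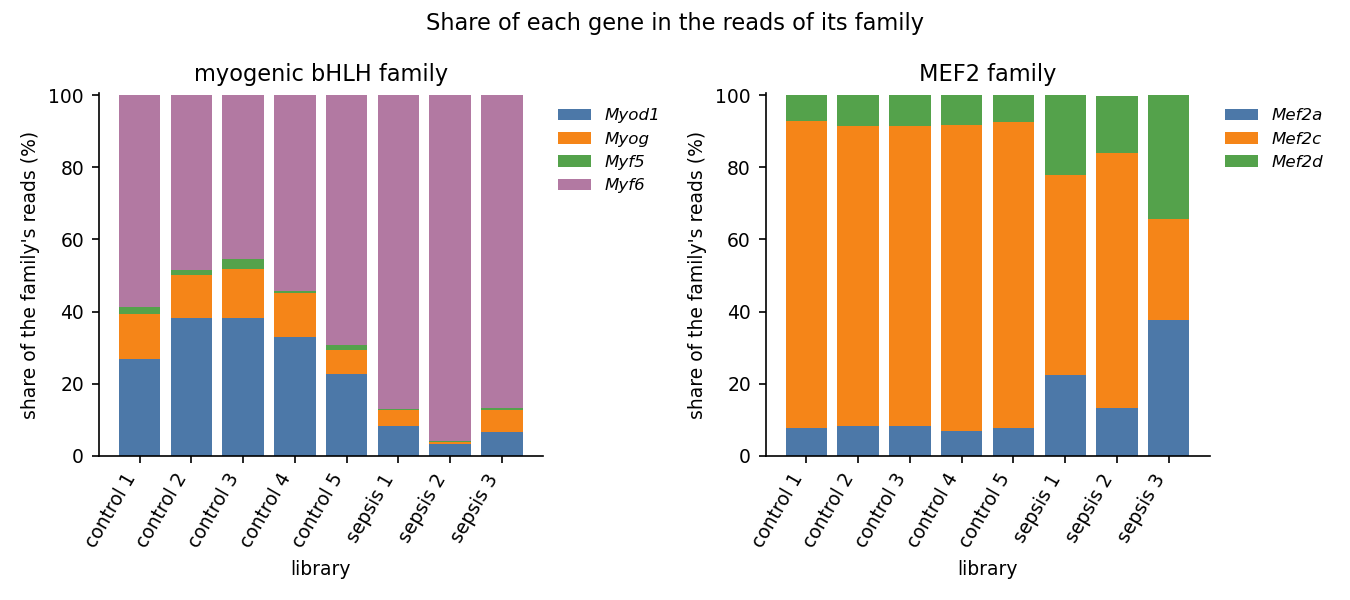
Share of each gene in the summed reads of the myogenic bHLH family (left) and the MEF2 family (right), in percent, as stacked bars for each of the 8 libraries. Myf6 made up at least 86.7% of the bHLH reads in each septic library, and Mef2c made up at least 83.3% of the MEF2 reads in each control.

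Among the MEF2 genes Mef2c alone passed the test, and it was by far the most abundant of them in controls. Mef2c (ENSMUSG00000005583) stood at 1471, 1386, 1382, 1468 and 1626 CPM in controls 1 to 5 and at 435, 689 and 137 CPM in sepsis 1 to 3. Every septic library was below every control, and the ratio of sepsis 2 to sepsis 3 was larger than that of the lowest control to sepsis 2. It fell 3.49-fold, which is -1.80 (SE 0.46) on the log2 scale, at an edgeR adjusted p of 0.0133. The fall passed in 17 of 18 alternatives and was lost without sepsis 1, at a log2 fold change of -1.83 and an adjusted p of 0.0543 (9.51e-06 to 0.0543 over the alternatives). Its SD of log2 CPM was 0.10 in controls and 1.20 in sepsis, and 0.944% of the 3073 genes with a mean log2 CPM of at least 5 varied more across the septic libraries.

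Mef2a (ENSMUSG00000030557) held 116 to 149 CPM in controls, with a median of 135, and 176, 130 and 184 CPM in sepsis 1 to 3. Sepsis 2 lay inside the control range and the other septic libraries above it, and the log2 fold change of 0.28 (SE 0.13) did not pass, with an edgeR adjusted p of 0.0888. Mef2d (ENSMUSG00000001419) held 124, 143, 140, 143 and 144 CPM in controls and 172, 154 and 168 CPM in sepsis. Its septic libraries were all above its controls by a small amount, at a log2 fold change of 0.25 (SE 0.10) and an edgeR adjusted p of 0.0609. Both genes passed as higher with library totals alone, at log2 fold changes of 0.69 and 0.66, and without sepsis 2, at 0.43 and 0.30. The adjusted p-values over the alternatives ran from 0.000169 to 0.263 for Mef2a and from 4.98e-05 to 0.188 for Mef2d. In the GENCODE annotation a gene on the opposite strand covers the 3′ end of each, Lysmd4 for Mef2a and 1700113A16Rik for Mef2d, and without a stated strand setting reads of the pairs cannot be told apart. Lysmd4 had 17 to 38 reads per library, against 321 to 807 for Mef2a. The fourth gene, Mef2b, had no control read and 3 reads in sepsis.

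Within the MEF2 family the share of Mef2c in the reads fell and the shares of Mef2a and Mef2d rose. The shares are parts of a whole, so a fall of Mef2c alone raises the others. The levels of Mef2a and Mef2d themselves did not pass, at log2 fold changes of 0.28 and 0.25. Mef2c made up 83.3% to 85.1% of the family's reads in the 5 controls and 55.6%, 70.8% and 28.0% in sepsis 1 to 3. Mef2a made up 6.72% to 8.21% in controls and 22.4%, 13.3% and 37.6% in sepsis, and Mef2d 7.20% to 8.58% and 22.0%, 15.8% and 34.4%. None of the 3 shares overlapped between the groups. The difference in the mean share of Mef2c was -32.8 percentage points, or -21.1 without sepsis 3, and that of Mef2a was 16.7, or 10.2 without sepsis 3. The summed MEF2 level was 1740 ± 106 CPM in controls and 749 ± 243 CPM in sepsis, with no overlap.

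**Figure D3:**
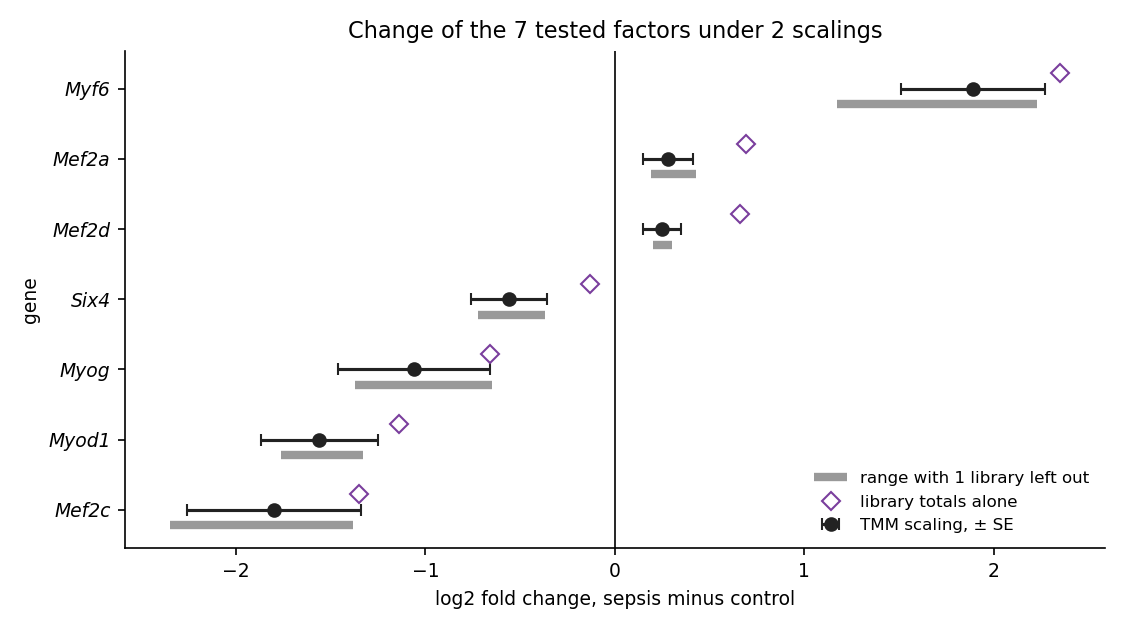
Log2 fold change (sepsis minus control, horizontal axis) of the 7 factors tested; filled points are the TMM-scaled edgeR values ± SE, open diamonds the values with library totals alone, and grey bars the range when each library is left out in turn. The signs of all 7 were the same in each of these analyses, while Mef2a, Mef2c, Mef2d, Six4 and Myog each passed the threshold in some of them and missed it in others.

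Mef2c is also expressed by endothelial cells and by some leukocytes, and in whole muscle fewer cells of a type and less RNA per cell cannot be told apart. The counts below stand beside 25.2% of all genes higher and 25.2% lower, or 43.4% and 14.1% with library totals alone. Of 12 endothelial markers, all tested, 6 rose and 2 fell, and their summed level was 491 to 550 CPM in controls and 573 to 1063 CPM in sepsis. The number that fell was 1 without control 3, 4 or 5 or sepsis 2. Of 18 leukocyte markers 11 were tested and 8 rose, or 5 without sepsis 2. The summed level of the 18 was 87.2 to 221 CPM in controls and 338 to 589 CPM in sepsis. The B cell marker Cd79a had no read in any library. Cd68, Ptprc and Itgam, which rose, reached the low-count filter's level in too few controls to be kept on those alone. The same held for the endothelial marker Cldn5. These genes were tested because septic libraries were high, so their rise was largely fixed in advance and is no result about the lists. All 17 muscle fibre genes, a list of fast-fibre genes and genes of all fibres, fell, or 13 with library totals alone. Their median log2 fold change was -0.99, and their summed level was 265481 to 309496 CPM in controls and 127588 to 165621 CPM in sepsis. Among 10 tested genes of slow fibres 3 were lower and 1 higher, with a median of -0.15, or 1 lower and 3 higher with library totals alone. None was higher without control 2, control 3, sepsis 1 or sepsis 2, and 2 were without sepsis 3. The part of these cell types in the values of the 9 factors was not tested.

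Pax7 (ENSMUSG00000028736), the satellite cell factor, had 14, 11, 7, 7 and 8 reads in controls 1 to 5 and 3, 10 and 8 in sepsis 1 to 3. In CPM these were 2.91 ± 0.736 in controls and 1.58 ± 0.687 in sepsis, and the lowest control and the highest septic library were both at about 2.1. Without the low-count filter edgeR gave a log2 fold change of -0.82 (SE 0.46) and an adjusted p of 0.186, so a difference was not detectable at this depth. Of 27 other satellite cell markers, 21 had enough reads, of which 5 rose, 1 fell and 15 did not pass, beside 25.2% of all genes in each direction. Those that rose were Vcam1, Tnfrsf12a, Sdc4, Sdc3 and Itgb1, which other cells of muscle also express. Vcam1 and Tnfrsf12a reached the low-count filter's level in too few controls to be kept on those alone. Their rise was thereby largely fixed in advance and is no result about the list. The marker that fell was the adhesion molecule gene Ncam1, at -1.05 (SE 0.29), which is also on the list of bHLH targets below and so not particular to satellite cells. The number that fell was 3 without sepsis 2, and with library totals alone 8 rose and none fell, beside 43.4% and 14.1% of all genes. Cdh15, which encodes the M-cadherin of satellite cells, had a log2 fold change of 0.07 (SE 0.26), and Calcr and Pax3 had at most 3 reads over either group.

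Six4 (ENSMUSG00000034460) held 18.6, 26.1, 23.2, 21.0 and 26.8 CPM in controls 1 to 5 and 16.8, 18.9 and 11.4 CPM in sepsis 1 to 3. Sepsis 2 was just above control 1, so the groups overlapped. The fall was 1.47-fold, or -0.56 (SE 0.20) on the log2 scale, at an edgeR adjusted p of 0.0324. It passed in 9 of 18 alternatives and was lost without control 2, 3 or 5 or sepsis 3, with DESeq2, limma-voom and library totals alone, and in both analyses of replicates 1 to 3. With library totals alone the log2 fold change was -0.13 at an adjusted p of 0.620, the highest of its alternatives, which went down to 0.0156.

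Other genes of the network around Six4 and EYA mostly fell. Of 7 tested among 9 listed, 5 fell and 1, the phosphatase gene Eya3, rose at 0.79 (SE 0.25), a call lost without sepsis 1. The median log2 fold change of this list was -0.70, beside 0.01 for all genes, of which 25.2% fell and 25.2% rose. The EYA proteins are the coactivators through which Six4 activates muscle genes, and Eya1 went from 23.2 ± 2.04 to 6.96 ± 3.98 CPM, a log2 fold change of -1.71 (SE 0.27). Eya4 fell by 1.09 on the log2 scale, and Six2, a relative of Six4, by 2.18. With library totals alone 3 genes of this list were lower and 1 higher, beside 14.1% and 43.4% of all genes.

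Partners and inhibitors of the bHLH factors included genes that rose, genes that fell and genes that did not pass. Of the 3 E proteins, which pair with MyoD and its relatives on E-boxes, Tcf3 rose from 7.49 ± 0.504 to 16.3 ± 2.07 CPM, at a log2 fold change of 1.12 (SE 0.18). Tcf12, which encodes the E protein HEB, had 0.17 (SE 0.15) and passed only with library totals alone, at 0.59. Among inhibitors 11 of 19 were tested, of which 4 fell and 1 rose, or 3 and 3 with library totals alone. All genes together had 25.2% lower and 25.2% higher, or 14.1% and 43.4% with library totals alone. The repressor gene Dach2, which in denervated muscle links histone deacetylases to Myog, went from 4.25 ± 0.936 to 0.901 ± 0.932 CPM, at -2.27 (SE 0.57) on the log2 scale. The clock repressor gene Bhlhe41 fell by 2.10 and the Notch target Heyl by 1.73 on the log2 scale, while the zinc-finger repressor gene Zeb1 rose at 0.75. Dach2 and Heyl, with 11 and 17 reads summed over sepsis, reached the low-count filter's level in no septic library. Both were thus tested only through the controls, and their fall was largely fixed in advance. Without control 3, control 4 or sepsis 2, 2 inhibitors were higher. The Id proteins sequester E proteins, and Id1, Id2 and Id3 had -0.58 (SE 0.40), 0.03 (SE 0.25) and 0.52 (SE 0.21), none of which passed. Id1 passed as lower without control 1 at -0.81, and Id3 passed as higher in 5 of 18 alternatives, including those without control 3, control 4 or sepsis 2.

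Of 22 regulators of MEF2 activity 19 were tested, of which 10 fell and 3 rose, beside 25.2% of all genes in each direction. Their median was -0.45. Of the 3 that rose, Mapk7 reached the low-count filter's level in too few controls to be kept on those alone. Its rise was thereby largely fixed in advance. The calcium-dependent kinases relieve MEF2 from histone deacetylases, and the muscle-rich kinase gene Camk2a went from 629 ± 48.7 to 64.9 ± 31.4 CPM, a log2 fold change of -3.27 (SE 0.30). Map2k6, an upstream kinase of p38, fell by 2.03 on the log2 scale, and so did the calcineurin subunit gene Ppp3ca, by 0.98. Sik1, which encodes a kinase that phosphorylates class II histone deacetylases, rose from 3.73 ± 2.30 to 24.6 ± 10.0 CPM, at 2.73 (SE 0.40). Of the histone deacetylase genes Hdac9 fell by 1.45 on the log2 scale, and did not pass with library totals alone or limma-voom. It had 24 reads summed over sepsis and reached the low-count filter's level in no septic library. The fall of Hdac9 was thereby largely fixed in advance. Hdac4 was at 44.4 ± 5.09 CPM in controls and 43.9 ± 5.70 CPM in sepsis, and its log2 fold change was -0.02 (SE 0.14). It turned to 0.41 with library totals alone and passed there, its only pass in 18 alternatives. Hdac5 had 0.39 (SE 0.16) without passing, and passed as higher in 4 of 18, including those without sepsis 2 or sepsis 3. Hrc, a calcium-binding protein of the sarcoplasmic reticulum that is itself a MEF2 target, was on this list and fell by 2.07. With library totals alone 7 were lower and 8 higher, beside 14.1% and 43.4% of all genes. Without sepsis 2 or sepsis 3 the number higher was 5.

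Among 31 other muscle transcription factors and cofactors tested, 12 fell and 8 rose, beside 25.2% of all genes in each direction. Their median was -0.48. Smyd1, a muscle histone methyltransferase gene, went from 343 ± 19.0 to 59.7 ± 24.8 CPM, at -2.52 (SE 0.25). Mrtfa, a coactivator of serum response factor, fell by 2.64 on the log2 scale, its partner gene Srf by 1.18 and the homeobox gene Barx2 by 2.25. Barx2 had 19 reads summed over sepsis and reached the low-count filter's level in no septic library. The fall of Barx2 was thereby largely fixed in advance. The call of Srf was lost with library totals alone. Runx1, which rises in denervated muscle, went from 5.31 ± 5.16 to 36.3 ± 14.8 CPM, at 2.73 (SE 0.54), and control 1 was its highest control at 14.4 CPM. Runx1 and Meox1, both among the 8 that rose, reached the low-count filter's level in too few controls to be kept on those alone. Their rise was thereby largely fixed in advance and is no result about the list. With library totals alone 8 were lower and 11 higher, beside 14.1% and 43.4% of all genes. The number higher was 5 without control 1, control 2, control 5 or sepsis 3.

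**Figure D4:**
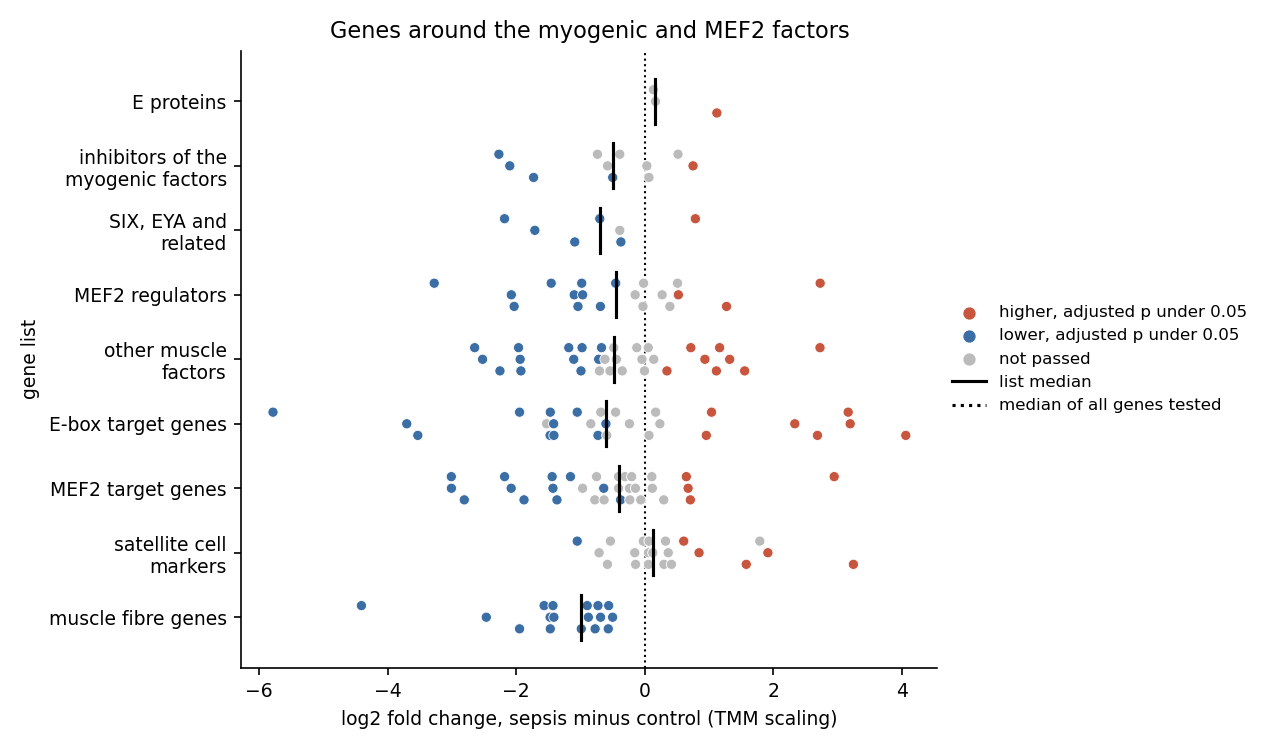
Log2 fold change (sepsis minus control, TMM scaling, horizontal axis) of the tested genes of 9 lists; each point is a gene, red or blue if it passed as higher or lower and grey if not, with the list median as a vertical bar and the median of all genes tested as a dotted line. Every muscle fibre gene lay to the left, while the target gene lists spread from strong falls to strong rises.

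Known target genes of the factors did not move as a block. Of 34 listed targets of the bHLH factors 27 were tested, of which 11 fell, 7 rose and 9 did not pass, with a median of -0.60. With library totals alone 9 fell and 9 rose. The shares over all genes were 25.2% lower and 25.2% higher, or 14.1% and 43.4% with library totals alone. The subunits of the acetylcholine receptor, whose promoters are classic E-box targets, moved in both directions. The adult subunit gene Chrne fell by 3.70 on the log2 scale, and Chrnb1, chosen after its values were seen, rose from 9.28 ± 3.73 to 18.1 ± 5.001 CPM, at 0.96 (SE 0.30). The call of Chrnb1 was lost without sepsis 1 or sepsis 2. Chrna1 had -0.59 (SE 0.43), and Chrnd had 21 reads over the controls and 10 over sepsis. Chrna1 passed as lower only without sepsis 2, at -1.27. Musk, the receptor kinase of the neuromuscular junction, rose from 35.0 ± 10.1 to 177 ± 19.8 CPM at 2.34 (SE 0.19). The contractile targets Mybph, Actc1 and Ckm changed by -5.78, -3.53 and -1.41 on the log2 scale, and the ubiquitin ligase gene Trim63 rose at 4.06 (SE 0.34). Chrne and Mybph, with 7 and 14 reads summed over sepsis, reached the low-count filter's level in no septic library. Their fall was thereby largely fixed in advance and is no result about the list. Mymk, the fusion protein myomaker, had 20 reads in control 1, 0 to 3 in the other controls and none in sepsis, and the fetal receptor subunit gene Chrng had 7, 0 to 1 and none.

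Of 33 listed MEF2 targets with a row 31 were tested, of which 12 fell, 4 rose and 15 did not pass, with a median of -0.41. With library totals alone 9 fell and 5 rose. Of all genes 50.4% passed, with 25.2% lower and 25.2% higher, or 14.1% and 43.4% with library totals alone. The glycolytic genes Eno3 and Pgam2 went from 3227 ± 149 to 402 ± 112 CPM and from 1523 ± 56.7 to 218 ± 90.3 CPM, and the AMP deaminase gene Ampd1 fell by 3.01 on the log2 scale. Xirp1, an adaptor of the fibre's actin skeleton, rose at 2.95 (SE 0.24). Mstn, the gene of the growth inhibitor myostatin, had 0.30 (SE 0.54), and it passed as higher only without sepsis 2, at 0.79.

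The genes whose levels followed the members most closely differed from member to member. Over the 8 libraries, and among 6975 genes with a mean log2 CPM of at least 3, Mef2c was most like Myh2, the myosin heavy chain of type 2A fibres, and the mTOR inhibitor gene Deptor, each with a Pearson r of 0.996, followed by Alkbh8 at 0.992. Myh2 stood at 1486 to 1771 CPM in controls and at 648, 842 and 223 CPM in sepsis 1 to 3, the same order of septic libraries as for Mef2c. After subtraction of each group's mean, Mef2c was most like Zcchc24 (r = 0.998) and Lmod3 (r = 0.996), an actin nucleator gene of the thin filament. Lmod3 had 127 to 142 CPM in controls and 65.7, 148 and 11.4 CPM in sepsis. Myf6 was most like the chaperone gene Hsph1 (r = 0.965), the endothelial cadherin gene Cdh5 (r = 0.957) and the stress-response gene Gadd45a (r = 0.956). Once the group means were subtracted, none of these was among the 3 genes most like Myf6, which had r of 0.965 to 0.975. Gadd45a held 8.79 to 18.0 CPM in controls and 67.6, 196 and 56.4 CPM in sepsis, again highest in sepsis 2. Myod1 was most like Tmem8b, with r = 0.994, and r = 0.975 after subtraction of the group means. The points share library, depth and the difference between groups, so these values describe likeness only and carry no test.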

How the data were processed

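The deposited table holds the authors' raw read counts per gene for 8 gastrocnemius libraries, 1 column each, per the file headers. The genome build was GRCm39, per the submitters' processing notes; the sources used here give no aligner, counting tool or strand setting. Per the labels' protocols 25 ng of total RNA entered each library.

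With edgeR 4.0.16 (R 4.3.3), genes were kept by its expression filter (minimum count 10, minimum total 15), leaving 9810. The robust quasi-likelihood F test compared sepsis with control without covariates on TMM-scaled counts, and p-values were Benjamini-Hochberg adjusted over all genes, with a threshold of 0.05. The SE is the absolute log2 fold change divided by the square root of F. Log2 CPM used a prior count of 2. Alternatives used other scaling factors or filters, DESeq2 1.42.0, limma-voom 3.58.1 with quality weights, a replicate block, and each library left out.

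The members and lists were chosen with earlier results of these data known. The 7 lists of regulators and targets give up to 4 genes each by size of change, and 21 key genes were added whatever their value, of which 1 is not reported here. Genes named outside this rule, such as Myh3, Myh8, Ppp3ca, Chrnb1 and members of the marker lists, were chosen after their values were seen. For likeness the 3 genes with the highest r were taken per member.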

Additional observations from a re-analysis of the deposited data

Results flagged for a closer look

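Among the 5 controls, 82 values (levels of the members and of the other genes named here, and family shares) were checked for a library far from the others, and 9 stood out by Dixon's criterion. Chance alone gives about 1 in 20 such values. Control 1 accounted for 7 of the 9, of which Myh3 and Myh8 were chosen after their values were seen. It was highest for Myh3 at 31.6 CPM (0 to 3.50 in the other controls), for Myh8 at 39.1 CPM (3.19 to 4.71), for Mymk at 5.55 CPM (0 to 0.903), for Chrng at 1.94 CPM (0 to 0.314), for Runx1 at 14.4 CPM (2.23 to 4.34) and for Eya4 at 50.0 CPM (38.6 to 40.4). It was lowest for Mef2d at 124 CPM (140 to 144). Without control 1, the log2 fold changes of Myod1 and Myog were -1.62 and -1.03, and Myog no longer passed, at an edgeR adjusted p of 0.0705. Control 5 was lowest for the share of Myog in the bHLH reads, at 6.67% against 12.0% to 13.6%, and highest for Mstn, at 38.2 CPM against 19.9 to 24.5.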

How the results depend on the processing

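Myf6 and Myod1 kept their calls in all 18 alternatives and Mef2c in 17, with log2 fold changes of 1.17 to 2.35, -1.76 to -1.14 and -2.35 to -1.35. With library totals alone 4256 genes were higher and 1387 lower, and 3 members were higher and 2 lower. DESeq2 and limma-voom each called 2 members lower. With single libraries left out 1 to 3 members were higher and 2 to 3 lower. The cause of these shifts was not tested. Reversed signs occurred for genes near 0. Hdac4 had 0.41 with library totals alone, 0.01 without the low-count filter, 0.00 with DESeq2 and up to 0.05 with single libraries left out (-0.13 to 0.05, above 0 without control 1, control 2, sepsis 1 or sepsis 3). Id2 had -0.01 with upper-quartile factors, and -0.13 to 0.22 with single libraries left out, below 0 without control 4, control 5 or sepsis 2. Mstn had -0.02 with limma-voom and -0.27 to 0.79 with single libraries left out, below 0 without sepsis 3, and Cdh15 had -0.15 to 0.34, below 0 without sepsis 1 or sepsis 2. Same-numbered libraries did not deviate together (correlations of -0.12, 0.04 and -0.02 over genes), and not every library correlated best with its own number. No pairing by number was seen, but so few libraries cannot exclude one. With replicates 1 to 3 and the replicate block, 1788 genes were higher and 1771 lower, against 2010 and 1894 for these libraries without it. With the block 1 member was higher and 3 lower, Six4 was lost, and Id2 had -0.18, as it had in these libraries without it. At 6 to 28 reads per library for Myog, and fewer for Pax7 and Myf5, depth limits what can be seen.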
